A study of Mus musculus with 5 samples.

Results

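The replicate number carried by the H3K27ac libraries of large intestinal regulatory T (Treg) cells was compared, number 1 (Ctrl 1 and KO 1) against number 2 (Ctrl 2 and KO 2). Of 124158 merged peaks, 74550 reached a count of 10 in 2 or more of the 4 libraries and were kept. Their positions were matched to protein-coding genes (GENCODE M21, mm10). Each number held 1 library of each genotype, so the difference between the numbers could be measured separately in Ctrl and in KO, in pairs that share no library. The labels do not say what the number marks (a litter, a day, a sort or a sequencing run), and these cannot be told apart here. The 2 libraries of a number are not replicates of a treatment, and the p-values below measure only the spread between libraries. Within a number that spread lies between a Ctrl and a KO library, because the fit held no genotype term.

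Both genotypes were C57BL/6 mice of 2 weeks of age with Foxp3 Cre-YFP, a Cre recombinase with a yellow fluorescent protein under the control of the Treg transcription factor gene Foxp3. Ctrl mice carried 1 floxed and 1 normal allele of the H3K36 methyltransferase gene Setd2 (Setd2 f/+), although the library titles call them WT, and KO mice carried both alleles floxed (Setd2 f/f). Cells of several littermates, females and males, were pooled for each library and sorted as CD3+ CD4+ Foxp3-YFP+ from the large intestine. The IgG control library is not analysed here.

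H3K27ac is the acetylation of lysine 27 of histone H3, a mark of active promoters and enhancers. In CUT&Tag an antibody brings a Tn5 transposase to the mark, and the transposase inserts adapters into the DNA beside it, so the signal depends on the mark, on how open and accessible the chromatin is, and on how much of the free enzyme cuts elsewhere. Mammalian genomes alternate between gene-dense, GC-rich, open chromatin and gene-poor, compact chromatin that often holds long genes of neurons and of cell adhesion, and Treg cells carry the mark at T cell genes such as Cd3g and Cd4 and at Treg genes such as Foxp3, Il2ra and Ctla4.

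The number 1 libraries held 2395002 (Ctrl) and 3007444 (KO) counts in peaks and the number 2 libraries 3630447 (Ctrl) and 4712473 (KO), so number 2 was the deeper one in both genotypes. Depth therefore moves with the number. Values after thinning all libraries to the smallest total are given for the called peaks and genes, the intergenic median, the difference by gene density, chromosome 11 and some gene lists. Foxp3 had 122 and 146 CPM (counts in every 1e+06 counts of the tested peaks, TMM-scaled) in Ctrl 1 and KO 1 and 145 and 228 in Ctrl 2 and KO 2. Among markers of other cells, the macrophage gene Lyz2 and the gut epithelial gene Cdx2 had no peak and Epcam had 3.83 to 8.14 CPM, but 13 of 18 myeloid and 12 of 24 epithelial genes had a peak, with Cx3cr1 at 222 to 270 CPM, Spi1 at 84.1 to 119, Cdh1 at 25.9 to 47.7 and Cd14 at 6.55 to 22.6. H3K27ac over Setd2 was 51.6 CPM in Ctrl 1, 45.8 in KO 1, 84.2 in Ctrl 2 and 65.4 in KO 2 (number 2 minus 1, log2 0.62 ± 0.23 SE, edgeR adjusted p = 0.137), a signal that does not read the floxed exons and so does not check the genotype. In these bulk samples fewer cells with the mark and less of the mark per cell cannot be told apart.

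Peaks with more H3K27ac in number 2 lay mostly in gene-dense regions, among them peaks in the actin regulatory genes Lasp1, Triobp and Mrtfa. Peaks with more in number 1 lay mostly in gene-poor regions. Of promoter peaks 91 (0.515%) were higher in number 1 and 64 (0.362%) in number 2, and of peaks between genes 68 (0.409%) and 7 (0.0421%). By the quasi-likelihood test of edgeR with Benjamini-Hochberg adjustment, 146 peaks (0.196% of those tested) were higher in number 2 and 202 (0.271%) were higher in number 1. Their log2 differences were 0.91 to 4.17 in number 2 and 0.92 to 7.47 in number 1, with medians of 1.15 and 1.44. A peak can pass the count minimum through the libraries of 1 number alone, so these sizes are not compared. Among the 7456 tested peaks of lowest abundance, 8 (0.107%) were called higher in number 1 and 0 in number 2. All called peaks moved the same way in the Ctrl and in the KO pair, as did 61.5% of all tested peaks. The call largely fixes this. In 146 and 201 of them both libraries of one number lay above both of the other, which the call largely fixes, and nothing is read from it beside the 22.3% (number 2 above) and 20.7% (number 1 above) of all tested peaks. At an unadjusted p under 0.05 there were 8487 peaks. For KO against Ctrl, fitted without the number, 1 peak passed the adjustment (0.00134%). The number of calls depended on the tool and the setting, with 73 and 26 peaks by DESeq2, 9 and 6 of the 54552 peaks that were still tested after thinning, and 1 and 3 without Ctrl 1. With all counts halved (divided and rounded) and the same 74550 peaks tested it was 115 and 141. Such halving is not a resampling at a lower depth.

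The sequences below are the central 300 bases of 6 of the 12 peaks with the smallest p, 3 for each direction, and show what lies at the centre of the leading peaks. They were read from the GRCm38 (mm10) genome, plus strand, 5′ to 3′, with CG dinucleotides in capitals. The first 3 were higher in number 2 and lie in Lasp1 (chr11:97824898-97825197), in an intron of Mrtfa (chr15:81034982-81035281) and at the promoter of Lgals9 (chr11:78983379-78983678). The last 3 were higher in number 1 and lie between genes with Atp10a as the nearest (chr7:58455655-58455954), between genes with Tgfbr2 as the nearest (chr9:116320696-116320995) and at the promoter of Fzd4 (chr7:89403761-89404060).
Lasp1: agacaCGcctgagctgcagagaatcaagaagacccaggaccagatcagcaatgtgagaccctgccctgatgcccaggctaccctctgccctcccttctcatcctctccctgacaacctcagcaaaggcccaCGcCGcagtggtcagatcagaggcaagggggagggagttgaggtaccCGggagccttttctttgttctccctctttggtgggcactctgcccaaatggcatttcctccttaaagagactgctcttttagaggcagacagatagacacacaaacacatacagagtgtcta
Mrtfa: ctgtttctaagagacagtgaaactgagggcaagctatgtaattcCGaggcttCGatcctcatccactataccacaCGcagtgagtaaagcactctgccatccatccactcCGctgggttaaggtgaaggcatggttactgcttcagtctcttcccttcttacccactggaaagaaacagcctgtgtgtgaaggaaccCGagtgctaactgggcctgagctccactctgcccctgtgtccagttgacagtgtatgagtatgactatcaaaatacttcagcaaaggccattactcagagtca
Lgals9: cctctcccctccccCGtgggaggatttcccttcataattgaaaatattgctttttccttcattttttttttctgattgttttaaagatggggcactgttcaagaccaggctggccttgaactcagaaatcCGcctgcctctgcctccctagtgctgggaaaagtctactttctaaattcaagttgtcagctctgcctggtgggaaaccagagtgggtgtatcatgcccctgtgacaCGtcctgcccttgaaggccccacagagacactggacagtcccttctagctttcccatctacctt
near Atp10a: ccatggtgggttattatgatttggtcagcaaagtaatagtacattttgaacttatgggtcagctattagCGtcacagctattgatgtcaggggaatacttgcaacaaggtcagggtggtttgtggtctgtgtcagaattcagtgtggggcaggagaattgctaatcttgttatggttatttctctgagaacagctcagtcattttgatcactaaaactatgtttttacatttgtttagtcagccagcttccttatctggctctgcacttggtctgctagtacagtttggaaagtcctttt
near Tgfbr2: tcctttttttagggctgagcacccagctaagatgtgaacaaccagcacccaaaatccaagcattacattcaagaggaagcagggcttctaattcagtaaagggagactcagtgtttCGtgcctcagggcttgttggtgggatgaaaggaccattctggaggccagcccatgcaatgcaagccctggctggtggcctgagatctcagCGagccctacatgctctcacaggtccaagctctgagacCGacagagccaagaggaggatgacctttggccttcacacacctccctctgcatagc
Fzd4: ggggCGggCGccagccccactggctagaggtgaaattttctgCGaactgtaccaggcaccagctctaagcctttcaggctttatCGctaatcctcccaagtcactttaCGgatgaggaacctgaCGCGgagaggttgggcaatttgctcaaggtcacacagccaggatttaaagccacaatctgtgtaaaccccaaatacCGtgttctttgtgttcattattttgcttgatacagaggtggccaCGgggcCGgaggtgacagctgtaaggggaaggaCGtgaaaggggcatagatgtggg
The windows held 4, 5 and 3 CG dinucleotides in number 2 and 1, 3 and 11 in number 1, at GC contents of 49.0% to 54.3% and 40.7% to 53.0%. Over the same windows of all 12 peaks GC content was 49.0% to 62.7% in number 2 and 40.7% to 72.7% in number 1, highest in the Tent5a promoter peak, whose centre held 43 CG dinucleotides.

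The peak with the smallest p of all was intergenic, chr7:58454563-58457047, 201 kb from the start of Atp10a, a phospholipid flippase gene, with 1 start site within 500 kb. It held 38.0 CPM in Ctrl 1, 33.2 in KO 1, 4.76 in Ctrl 2 and 7.67 in KO 2. Both number 1 libraries lay far above both number 2 libraries (log2 −2.49 ± 0.35 SE, edgeR adjusted p = 5.36e-08). The promoter peak of Tent5a, a nucleotidyltransferase gene, at chr9:85325357-85328955 held 99.1, 85.7, 30.1 and 31.4 CPM in the same order, so that it too was higher in number 1 in both genotypes (log2 −1.58 ± 0.25, adjusted p = 1.47e-05). Of the other 4 leading peaks of number 1, 3 lay between genes, 144 kb from Tgfbr2 (a TGF-β receptor), 187 kb from Dmrta1 and 347 kb from Adgrl2, and 1 at the promoter of the Wnt receptor gene Fzd4, which overlaps Tmem135 (log2 −1.49 to −1.98). The start sites within 500 kb of the 6 peaks numbered 1 to 5.

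The leading peak of number 2, chr11:97823848-97826248, covered an exon of Lasp1, which encodes an actin-binding LIM protein. It held 13.6 CPM in Ctrl 1 and 18.6 in KO 1 against 38.1 in Ctrl 2 and 64.7 in KO 2 (log2 1.67 ± 0.28 SE, edgeR adjusted p = 1.07e-04). A peak in Triobp, a gene of another actin-binding protein, held 28.5 and 27.6 against 65.8 and 91.5 CPM (log2 1.49 ± 0.26), and 1 in an intron of Mrtfa, the actin-regulated cofactor of serum response factor, held 32.6 and 44.0 against 94.6 and 112 (log2 1.43 ± 0.25). In each of these both number 2 libraries exceeded both number 1 libraries. The others lay at the promoter of Lgals9 (galectin-9), over Ptprcap, the CD45-associated protein gene, in a peak that also covers Coro1b and Rps6kb2, and in Gm28035, which overlaps Lrrc8a (log2 1.34 to 1.41). The 6 peaks had 13 to 45 start sites within 500 kb.

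Called peaks of the 2 numbers differed in their neighbourhood. The median peak higher in number 2 had 25 protein-coding start sites within 500 kb on either side, was 2958 bp wide and had 52.2% GC. The median peak higher in number 1 had 6 start sites, was 1465 bp wide and had 48.8% GC, and the median peak that was not called had 11, 730 bp and 48.7%. Wide peaks hold more counts, and called peaks of both directions were wider and more abundant than the remainder, so width and abundance move with the calls.

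The local number of genes ordered the difference over all tested peaks, called or not. The median log2 difference was −0.46 for the 4130 peaks with 0 to 2 start sites within 500 kb, −0.27 with 3 to 5, −0.14 with 6 to 10, 0.070 with 11 to 20, 0.29 with 21 to 40 and 0.42 for the 3602 peaks with over 40. The Ctrl pair went from −0.39 to 0.41 and the KO pair from −0.43 to 0.38, with each step up in both. The count of peaks higher in number 2 was 0 of 4130 in the first of these groups and 35 (0.972%) in the last, and the count higher in number 1 was 34 (0.823%) and 1 (0.0278%). For KO against Ctrl the same 6 medians lay between −0.037 and 0.054.

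**Figure D1:**
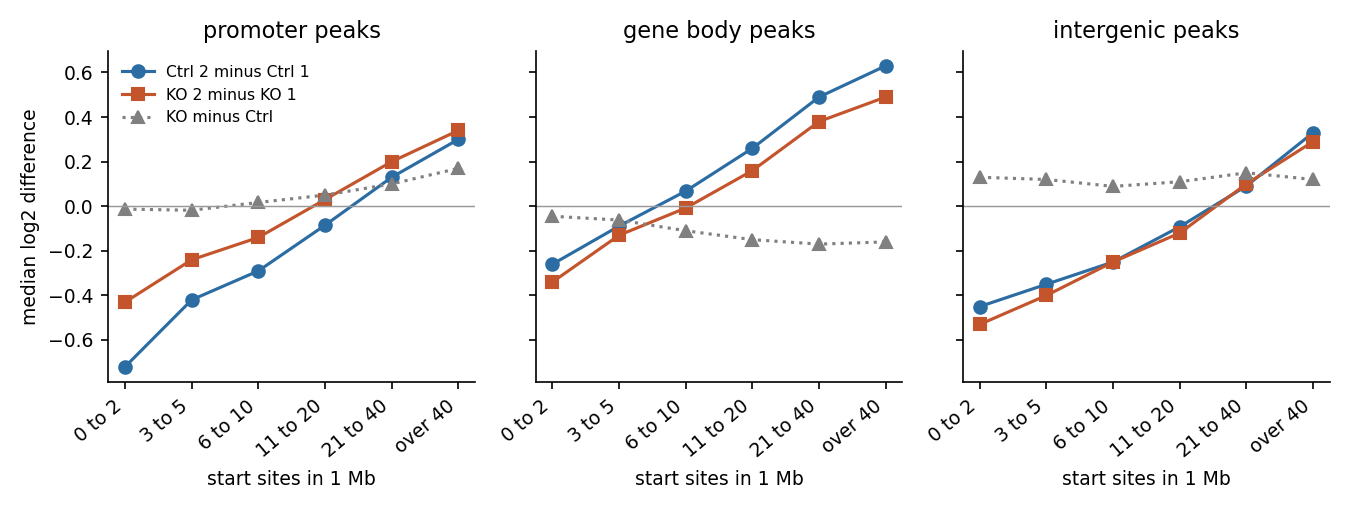
Median log2 difference of promoter, gene body and intergenic peaks (y axis) by the number of protein-coding start sites within 500 kb on either side (x axis). Circles give Ctrl 2 minus Ctrl 1, squares KO 2 minus KO 1 and triangles KO minus Ctrl. Both number differences climb from left to right in all 3 classes, from −0.72 to 0.30 in the Ctrl pair at promoters, while KO minus Ctrl stays between −0.17 and 0.17.

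In shares of all counts, peaks with 0 to 2 start sites took 4.93% in Ctrl 1 and 4.86% in KO 1 against 3.82% in Ctrl 2 and 3.76% in KO 2. Peaks with 21 to 40 took 18.9% and 19.5% against 22.2% and 22.7%. The 2 numbers did not overlap in either share, with differences of −1.11 and 3.18 percentage points against pooled SDs of 0.0420 and 0.411 (n = 2 each). The exact permutation test, two-sided, gave p = 0.33 for both, and no smaller value can be reached with 2 libraries on each side. The difference between the medians of the densest and the sparsest group, 0.89 in log2 units, was 0.81 with all libraries thinned to equal totals, 0.77 with a loess offset on GC content, 0.62 with at least 50 counts and 1.58 with no count minimum.

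The gradient was present within each level of GC content. In the 14910 peaks with the lowest GC content (up to 44.2%), the median went from −0.46 at 0 to 2 start sites to 0.26 at over 40. In the 14910 with the highest (from 53.7%), it went from −0.64 to 0.44. By GC content alone the medians were −0.15, −0.071, 0.012, 0.11 and 0.087 in 5 groups of nearly equal size from the lowest to the highest.

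The difference was also summarised in windows of 1 Mb, the only window size used. In the 1254 windows with at least 20 tested peaks, the median difference in the Ctrl pair followed that in the KO pair (Pearson r = 0.84, Spearman rho = 0.84 across windows), and 82.5% of windows had the same sign in both. Across single peaks r was 0.26 (n = 74550) and across genes 0.45 (n = 12739). A window median pools at least 20 peaks, so these values of r do not measure an extent along the chromosome. The pairs share no library, but the windows share 1 peak set and 1 scaling, and neighbouring windows are not independent. In 48 windows both pairs exceeded 0.5 and in 75 both were under −0.5, and 0 windows exceeded 0.5 in one pair and fell under −0.5 in the other. The median number of start sites in these windows was 21.5 and 5.0, against 10 over all windows. The SD of the window medians was 0.36 for number 2 against 1 and 0.19 for KO against Ctrl.

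**Figure D2:**
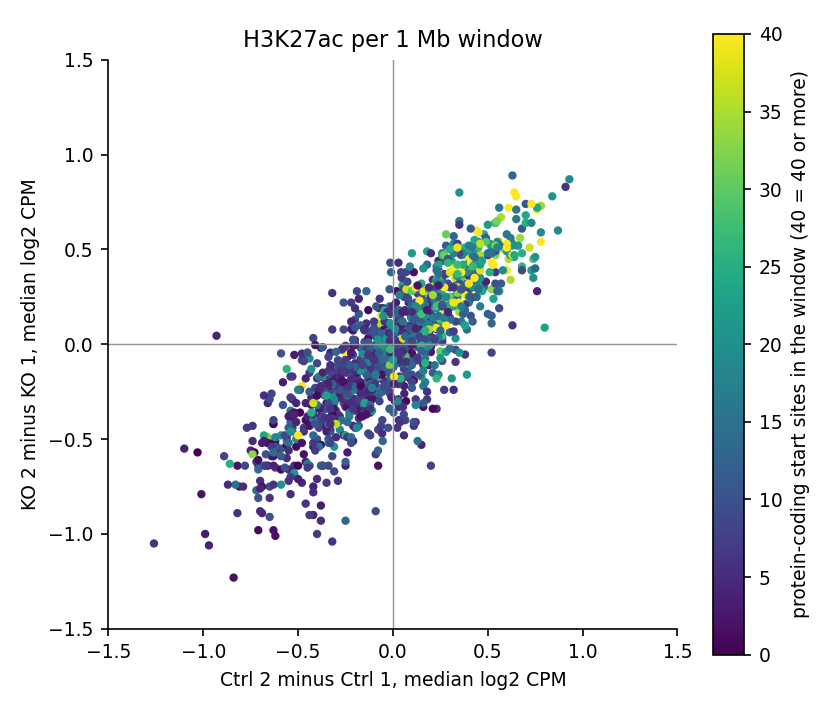
Each of the 1254 points is a 1 Mb window with at least 20 tested peaks. The x axis is the median log2 CPM difference Ctrl 2 minus Ctrl 1, the y axis KO 2 minus KO 1, and the colour the number of protein-coding start sites in the window. The points lie along the diagonal (r = 0.84), with gene-poor windows at the lower left and gene-dense windows at the upper right.

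Among the windows furthest toward number 2, chr15:81000001-82000000, with Mrtfa, Rangap1 and the histone acetyltransferase gene Ep300 among its 21 start sites, had medians of 0.84 in the Ctrl pair and 0.78 in the KO pair over 94 peaks. chr19:7000001-8000000, with the integrin adaptor gene Fermt3 and the kinase gene Mark2, had 0.93 and 0.87. chr17:30000001-31000000, with Btbd9 and Glo1, had 0.91 and 0.83 with only 6 start sites, so single windows departed from the order by gene number.

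The windows furthest toward number 1 included chr9:92000001-93000000, which holds the phospholipid scramblase cluster Plscr1, Plscr2, Plscr4 and Plscr5, at −1.26 in the Ctrl pair and −1.05 in the KO pair. chr9:85000001-86000000 with Tent5a had −0.97 and −1.06, and chr13:89000001-90000000 with Hapln1 and Vcan had −0.84 and −1.23. chr10:130000001-131000000 had 14 start sites, most of them of olfactory and vomeronasal receptor genes, and medians of −0.72 and −0.77. chr3:149000001-150000000 held no start site and had −1.03 and −0.57.

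Chromosome 11 had the highest median, 0.37 in the Ctrl pair and 0.38 in the KO pair over 4924 peaks, followed by chromosome 19 (0.24 and 0.21), 15 (0.20 and 0.19) and 17 (0.16 and 0.14). Chromosome 3 had the lowest combined median apart from Y (−0.19 and −0.22), with X lower in the Ctrl pair (−0.24 and −0.084), and chromosomes 1, 6, 10, 13, 14, 16, 18 and X were below 0 in both pairs as well. The sign was the same in both genotypes for 19 of the 20 chromosomes other than Y. Of the 146 peaks higher in number 2, 95 lay on chromosomes 11, 15, 17 and 19, which held 18% of tested peaks. These chromosomes were picked for their high medians in the same data, so the count is no separate support for them.

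**Figure D3:**
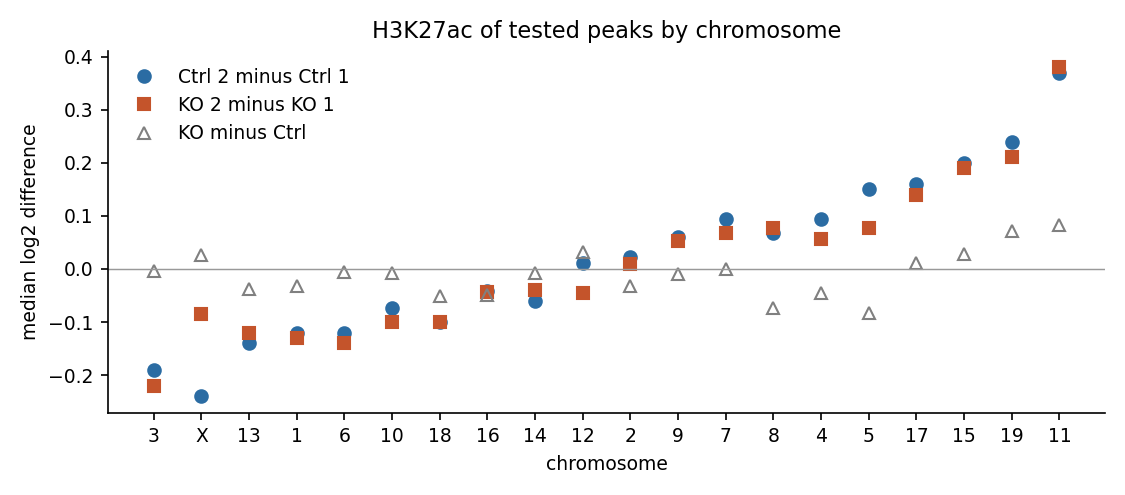
Median log2 difference of the tested peaks (y axis) on each chromosome but Y (x axis, ordered by number 2 minus 1). Circles give Ctrl 2 minus Ctrl 1, squares KO 2 minus KO 1 and open triangles KO minus Ctrl. From left to right both number differences climb, from −0.19 and −0.22 on chromosome 3 (with −0.24 and −0.084 on X) to 0.37 and 0.38 on chromosome 11, where KO minus Ctrl was 0.082.

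Chromosome 11 took 6.41% of counts in Ctrl 1 and 7.02% in KO 1 against 8.07% in Ctrl 2 and 8.65% in KO 2. Its peaks lay above those of other chromosomes with the same number of start sites. With 11 to 20 start sites the median was 0.44 on chromosome 11 (1798 peaks) and 0.037 elsewhere, with 21 to 40 it was 0.46 and 0.26, and with over 40 it was 0.59 and 0.40. With 3 to 5 it was 0.009 (207 peaks) against −0.27. With 0 to 2 the order was the other way, −0.71 over 38 peaks against −0.46. The X chromosome took 1.27%, 1.19%, 1.07% and 1.11% of counts in Ctrl 1, KO 1, Ctrl 2 and KO 2, and the share of each sex in the pools is not given.

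The median log2 difference was 0.13 for 40263 gene body peaks, −0.034 for 17669 promoter peaks (within 3 kb of a start site) and −0.26 for 16618 intergenic peaks. Gene body peaks were positive in the Ctrl pair (0.19) and the KO pair (0.093), and intergenic peaks were negative in both (−0.20 and −0.22). Promoter peaks had opposite signs, −0.070 and 0.046, and their median was 0.033 with no count minimum and 0.007 without Ctrl 2. Without Ctrl 2 the gene body median was 0.011, with KO 2 alone set against Ctrl 1 and KO 1. Genotype is then not balanced, and gene body peaks had a KO minus Ctrl median of −0.12. The intergenic median was −0.13 with at least 50 counts, −0.14 without KO 1 and −0.51 with no minimum. Intergenic peaks made up 68 of the 202 peaks higher in number 1 (0.409% of intergenic peaks) and 7 of the 146 higher in number 2 (0.0421%). Promoter peaks made up 91 and 64, the highest shares of a class in both directions (0.515% and 0.362%, against 0.271% and 0.196% of all peaks), and gene body peaks 43 and 75 (0.107% and 0.186%).

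Intergenic peaks took 18.7% of counts in Ctrl 1, 19.4% in KO 1, 16.2% in Ctrl 2 and 16.9% in KO 2, so the numbers did not overlap (means of 19% ± 0.497 and 16.5% ± 0.496, SD, n = 2, exact permutation p = 0.33). Gene body peaks took 39.3% ± 0.394 and 41.8% ± 2.13 (exact permutation p = 0.33), with Ctrl 2 at 43.3%, and promoter peaks 41.7% ± 0.102 and 41.7% ± 1.64 (exact permutation p = 1). Intergenic peaks further from genes had lower values. The median was −0.16 for those 3 to 10 kb from a start site, −0.28 at 30 to 100 kb, −0.38 at 100 to 300 kb and −0.60 over 300 kb (727 peaks).

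Promoter peaks rich in CpG (at least 55% GC and a CpG ratio of at least 0.6) had a median of −0.14 (3718 peaks), −0.24 in the Ctrl pair and −0.023 in the KO pair, and the remaining promoter peaks 0.001. Of CpG-rich promoters 38 (1.02%) were higher in number 1 and 7 (0.188%) in number 2. CpG-rich peaks in gene bodies (112) and between genes (137) had medians of −0.49 and −0.39. In the 6187 genes with tested peaks in both places, the gene body difference exceeded the promoter difference by a median of 0.25 and did so in 67.2% of genes, with 0.37 in the Ctrl pair and 0.091 in the KO pair.

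The central 300 bases of called peaks were searched on both strands for 12 short motifs. CCGGAAG, the core of ETS sites, was in 7.43% of peaks higher in number 1, 2.05% of those higher in number 2 and 2.88% of all tested peaks. CTTTGAA, the core of TCF and LEF sites, was in 3.96%, 9.59% and 5.92%, and GGGANTTCC, of NF-κB, in 3.96%, 0.685% and 1.31%. TGANTCA, of AP-1, was in 9.41%, 11% and 9.55%. CCGGAAG contains a CG dinucleotide. The shares are descriptions over 202 and 146 peaks.

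For each gene, counts were added up over its promoter and body. Of 12739 tested genes, 166 (1.30%) were higher in number 2 and 235 (1.84%) in number 1 by edgeR with adjustment over all genes. Their median differences were 0.88 and 1.26 in log2 units. A gene can also pass the count minimum through the libraries of 1 number alone, so these sizes are not compared. All called genes had the same sign in both genotypes, as did 70.6% of all tested genes, and the call largely fixes this. The libraries of the 2 numbers did not overlap in any of the 166 and 235, which the call again largely fixes. Of all tested genes, 25.8% (number 2 above) and 26.4% (number 1 above) did not overlap. These calls depended on 1 library and on the filter. No gene passed without KO 1 (1933 at an unadjusted p under 0.05) or among the 9369 genes with at least 50 counts (1917 at an unadjusted p under 0.05), while DESeq2 called 168 and 219.

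Long genes had lower values in number 2. The median log2 difference was 0.10 for genes under 10 kb, 0.067 at 10 to 30 kb, 0.002 at 30 to 100 kb, −0.18 at 100 to 300 kb and −0.86 for the 475 genes over 300 kb, where the Ctrl pair had −0.46 and the KO pair −1.10. Of genes over 300 kb, 83 (17.5%) were called higher in number 1 and 1 (0.211%) in number 2. The median length was 155 kb for genes higher in number 1, 33.2 kb for genes higher in number 2 and 26.5 kb for all tested genes, and the median number of start sites within 500 kb was 5.0, 29 and 15.

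The 12 genes with the smallest p in number 1 are described first. Lrp1b, a lipoprotein receptor gene of 2060 kb, held 24.4 CPM in Ctrl 1 and 32.4 in KO 1 against 4.46 in Ctrl 2 and 4.55 in KO 2 (log2 −2.65 ± 0.41 SE, edgeR adjusted p = 0.0188). Its 12 peaks together held 54, 87, 15 and 19 counts, so a low signal was split over a very long gene. Grm5, a metabotropic glutamate receptor, held 28.0 and 27.9 against 6.25 and 4.79 CPM (log2 −2.34 ± 0.39). Both number 1 libraries were above 24 CPM in these genes and both number 2 libraries under 7.

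Vcan, the matrix proteoglycan versican, held 35.3 and 36.1 CPM in Ctrl 1 and KO 1 against 5.95 and 9.10 in Ctrl 2 and KO 2 (log2 −2.23 ± 0.35). Galnt18 (a glycosyltransferase), Negr1 (a neuronal adhesion protein) and the Notch ligand gene Jag1 differed by −2.29, −1.86 and −1.72. Tent5a held 106 and 87.9 against 33.9 and 32.3 CPM (log2 −1.55 ± 0.23). Nrxn3 (a synaptic neurexin), Klf12 (a Krüppel-like repressor), Setbp1, the zinc finger gene Zfp608 and the adhesion receptor gene Adgrv1 differed by −1.06 to −1.39. All 12 had the same adjusted p of 0.0188.

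Among the 12 leading genes of number 2, Rangap1, the activator of the Ran GTPase, held 57.9 CPM in Ctrl 1 and 50.7 in KO 1 against 144 in Ctrl 2 and 127 in KO 2 (log2 1.32 ± 0.21 SE, edgeR adjusted p = 0.0188), and it overlaps Zc3h7b. Sipa1, which activates the GTPase activity of Rap, held 60.2 and 66.3 against 133 and 162 CPM (log2 1.22 ± 0.20). Ptprcap held 55.6 and 52.9 against 115 and 159 CPM (log2 1.34 ± 0.22), from the single peak it shares with 2 neighbours. In each, the lower number 2 library was well above the higher number 1 library.

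Mrtfa held 239 and 279 CPM in number 1 and 472 and 588 in number 2 (Ctrl, KO; log2 1.03 ± 0.17). Mef2d, a transcription factor of activated T cells and muscle, held 285 and 325 against 530 and 604 (log2 0.89 ± 0.16). Dnm2 (dynamin 2), Ccm2 (a scaffold protein), Sun2 (a protein of the inner nuclear membrane), Tmc6, Triobp, Zfp598 and Gm28035 differed by 0.88 to 1.30. Dnm2, Mrtfa, Tmc6 and Gm28035 overlap other genes (Tmed1, Sgsm3, Tmc8, and Lrrc8a with Phyhd1), and each peak was given to 1 gene.

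**Figure D4:**
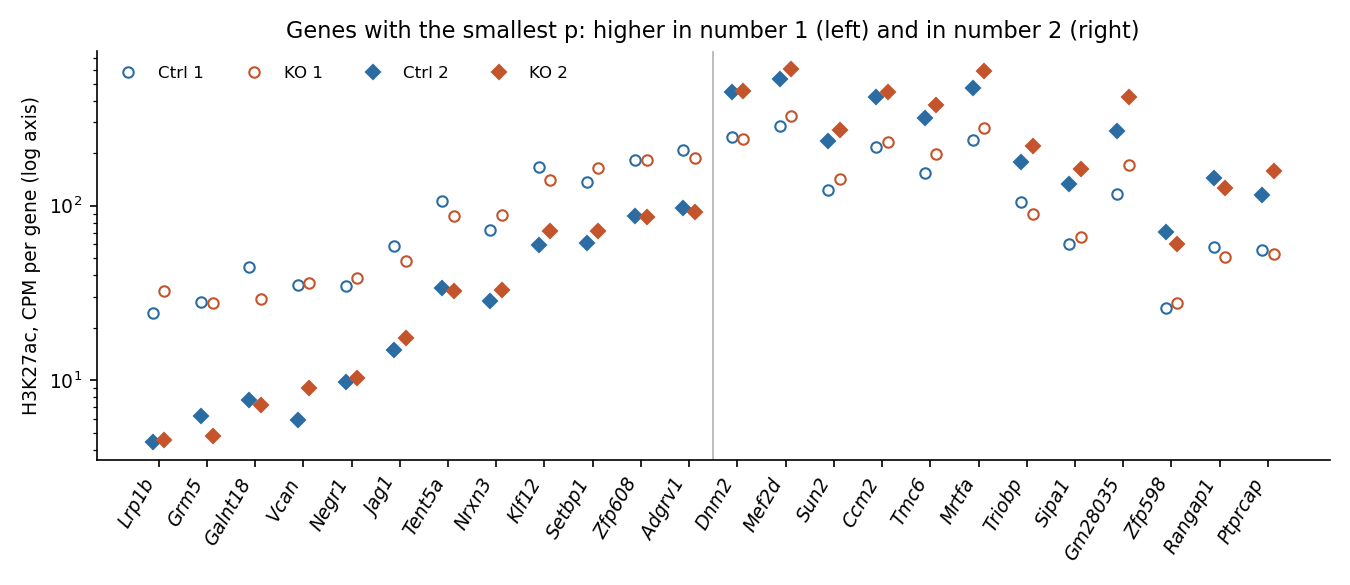
H3K27ac per gene in CPM (y axis, log scale) in each library for the 12 genes higher in number 1 and the 12 higher in number 2 with the smallest p. Open circles are number 1 libraries, filled diamonds number 2 libraries, blue Ctrl and orange KO. The 24 genes were chosen for numbers that do not overlap, and the steepest fall is that of Lrp1b, from 24.4 and 32.4 to 4.46 and 4.55 CPM.

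Of 16 tested T cell genes 15 were above 0 and 1, Cd3g, was called (6.25%, against 1.30% of all genes, a count too small to set apart), with a median of 0.40 (0.45 in the Ctrl pair, 0.38 in the KO pair) against 0.000 over all tested genes, and 0.27 to 0.54 without 1 library. Cd3g, of the T cell receptor complex, held 76.0 CPM in Ctrl 1, 88.7 in KO 1, 136 in Ctrl 2 and 143 in KO 2 (log2 0.76 ± 0.19 SE, edgeR adjusted p = 0.0483). The inhibitory receptor gene Cd5 held 393, 506, 612 and 793 CPM in that order (log2 0.64 ± 0.18, adjusted p = 0.0575) and the adaptor gene Lat 89.1, 122, 150 and 183 (log2 0.65 ± 0.20, adjusted p = 0.0819), both with number 2 above number 1. The coreceptor gene Cd4 held 117, 133, 181 and 152 CPM (adjusted p = 0.212), without overlap, and Cd3e, of the receptor complex, 74.2, 101, 95.8 and 101 (adjusted p = 0.685), with overlap. The T cell genes had a median of 26 start sites within 500 kb, against 15 for all tested genes, and the part of this in their difference was not tested.

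No Treg core gene was called. The median over 14 genes was 0.17 (0.084 in the Ctrl pair, 0.24 in the KO pair), with 11 above 0, and −0.051 without KO 2. Lrrc32, the surface carrier of latent TGF-β, held 160, 147, 210 and 295 CPM in Ctrl 1, KO 1, Ctrl 2 and KO 2 (log2 0.72 ± 0.19, edgeR adjusted p = 0.0550). Il2ra, the IL-2 receptor α chain, held 342, 392, 358 and 407 (log2 0.060 ± 0.16) and Ctla4, the inhibitory receptor, 445, 607, 475 and 690 (log2 0.15 ± 0.19), where the libraries of the 2 numbers overlapped. Foxp3, which overlaps Ppp1r3f and Ccdc22, differed by 0.48 ± 0.22 (adjusted p = 0.215).

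Of 30 tested effector and tissue Treg genes, 24 were under 0 and none was called, with a median of −0.14 (−0.17 in the Ctrl pair, −0.092 in the KO pair). The median was close to 0 in other settings, −0.007 without KO 1, −0.028 without Ctrl 2 and −0.005 with the GC offset, and −0.29 without KO 2. Areg, the tissue repair ligand amphiregulin, held 24.4, 11.6, 5.06 and 4.31 CPM in Ctrl 1, KO 1, Ctrl 2 and KO 2 (log2 −1.93 ± 0.52, edgeR adjusted p = 0.0568). The receptor gene Klrg1 held 181, 164, 97.9 and 116 (log2 −0.69 ± 0.19, adjusted p = 0.0575) and the transcription factor gene Bhlhe40 116, 122, 68.4 and 74.0 (log2 −0.74 ± 0.20, adjusted p = 0.0538). Number 1 was above number 2 in all 3. Gata3 (log2 0.15 ± 0.19) and Il1rl1, the ST2 gene (−0.047 ± 0.22), had adjusted p of 0.698 and 0.924.

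Lists that the study took from other data on Treg cells of colon and spleen were also counted. Of 400 tested colonic Treg signature genes, 25 were higher in number 1 (6.25%, against 1.84% of all genes) and 1, Vps37b, in number 2 (0.250%, against 1.30%). The list median was −0.16 (−0.21 and −0.15 in the Ctrl and KO pairs). Of 421 tested splenic Treg signature genes, 9 were higher in number 2 (2.14%, against 1.30%) and 4 in number 1 (0.950%, against 1.84%). The list median was 0.058 (0.022 and 0.10). The 9 were Def6, Fam78a, Mfng, Pitpnm2, Relt, Sh2d3c, Slc44a2, Tbc1d10c and Zbtb7b, and the 4 were Amn1, Rmdn1, Tespa1 and Zfp386. Zbtb7b, the ThPOK gene of the CD4 lineage, held 192 and 243 CPM in Ctrl 1 and KO 1 and 314 and 453 in Ctrl 2 and KO 2 (log2 0.82 ± 0.20, edgeR adjusted p = 0.0404).

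The 25 colonic signature genes higher in number 1 included transcription factors (Jun, Nr4a2, Zeb2, Trps1 and Arnt2), signalling genes (Irak3, Tnip3, Phlpp1, Plk2 and Ipmk) and the Ah receptor repressor gene Ahrr. Ahrr held 277 and 349 CPM in Ctrl 1 and KO 1 against 156 and 190 in Ctrl 2 and KO 2 (log2 −0.86 ± 0.18, edgeR adjusted p = 0.0287), and Tnip3, an inhibitor of NF-κB signalling, 199 and 179 against 113 and 107 (log2 −0.78 ± 0.18, adjusted p = 0.0382). A further 13 were Tent5a, C9orf72, Cobll1, Emp1, Galc, Gas2, Igfbp7, Ky, Map9, Msrb3, Nckap5, Plscr2 and Ypel4, with differences of −0.77 to −1.55. The median colonic signature gene had 11 start sites within 500 kb and the median splenic one 15.

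Immediate early genes are those that cells switch on within minutes of stimulation or handling. Of 26 tested members 2 were called (7.69%, against 1.84% of all genes higher in number 1), a count too small to set apart. Jun held 133 CPM in Ctrl 1, 137 in KO 1, 64.6 in Ctrl 2 and 63.0 in KO 2 (log2 −1.08 ± 0.20 SE) and the nuclear receptor gene Nr4a2 95.0, 75.6, 35.1 and 32.1 (log2 −1.34 ± 0.23), both higher in number 1 with an edgeR adjusted p of 0.0188. Jun had 9 and Nr4a2 2 start sites within 500 kb, against medians of 21 for the list and 15 for all tested genes. The part of this in their difference was not tested. Over 26 tested members the median was −0.24 (−0.37 in the Ctrl pair, −0.10 in the KO pair), with 18 under 0. Egr2 held 87.8, 74.5, 39.0 and 52.2 CPM (log2 −0.82 ± 0.23, adjusted p = 0.0648). Fos (log2 −0.16 ± 0.22), Junb (0.064 ± 0.16), Nr4a1 (0.34 ± 0.18) and Dusp1 (0.27 ± 0.17) had adjusted p of 0.277 to 0.850.

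Resting lymphoid genes had a median of 0.18 over 16 tested, with none called, and −0.083 without KO 2. Tcf7, the TCF-1 gene, held 230, 266, 342 and 449 CPM in Ctrl 1, KO 1, Ctrl 2 and KO 2 (log2 0.67 ± 0.18, edgeR adjusted p = 0.0512). Ccr7, the lymph node homing receptor, held 90.0, 78.2, 78.3 and 116 CPM (log2 0.21 ± 0.23), and its libraries overlapped.

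**Figure D5:**
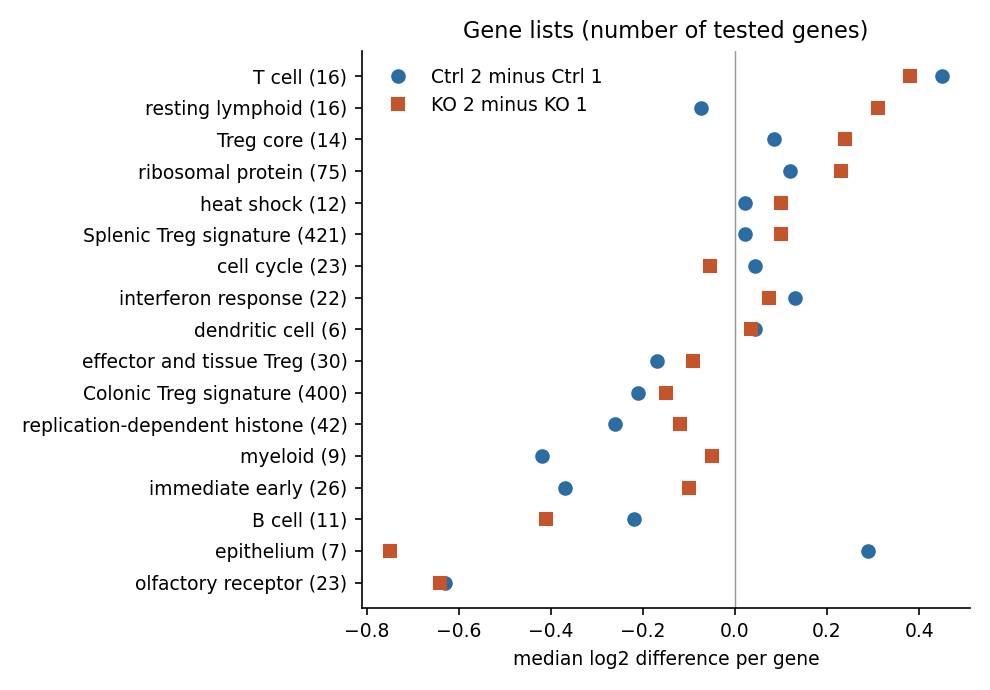
Median log2 difference per gene (x axis) for each list with at least 5 tested genes, whose number is in brackets (y axis). Circles give Ctrl 2 minus Ctrl 1 and squares KO 2 minus KO 1. T cell genes lie furthest to the right (0.45 and 0.38), the 23 tested olfactory receptor genes lie at −0.63 and −0.64, and epithelium has 0.29 and −0.75, with opposite signs.

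Markers of other lineages also held signal, and its level is not compared with that of other genes. Summed over the tested members of each list, B cell genes held 153, 199, 140 and 142 CPM in Ctrl 1, KO 1, Ctrl 2 and KO 2, myeloid genes 432, 465, 374 and 426, epithelial genes 64.2, 99.5, 75.6 and 71.9, and stromal genes 31.7, 33.2, 24.1 and 24.0. Most of the myeloid sum came from Cx3cr1, the fractalkine receptor gene, with 252, 270, 222 and 230 CPM. Cd14, a monocyte receptor gene, held 22.6 and 19.4 CPM in number 1 and 6.55 and 9.34 in number 2 (log2 −1.39 ± 0.41, edgeR adjusted p = 0.0714). The part of such cells in the differences between the numbers was not tested. Of 11 tested B cell genes 1 was called, higher in number 1 (9.09%, against 1.84% of all genes, a count too small to set apart). It was Ebf1, the B lineage factor, at 15.4, 20.9, 3.87 and 5.75 CPM (log2 −1.90 ± 0.48, edgeR adjusted p = 0.0480), in a gene of 391 kb. Spi1, the PU.1 gene of myeloid and B cells, held 84.1, 90.5, 92.6 and 119 CPM (log2 0.28 ± 0.21). No member was called among the tested genes of the myeloid (9), dendritic cell (6), epithelium (7), stroma (3), endothelium (2), NK and CD8 (4), mast and erythroid (4), plasma cell (1) and neural and glia (1) lists, with medians of −0.023 to −0.44. Of these, the epithelium, stroma, endothelium, NK and CD8, and mast and erythroid lists had opposite signs in the 2 genotypes.

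Gene families in clusters were also counted. Olfactory receptor genes, silent outside the nose, had a peak in 94 of 1092 and were tested in 23, with a median of −0.77 (−0.63 and −0.64 in the Ctrl and KO pairs), 19 of 23 under 0 and none called. Replication-dependent histone genes had a median of −0.20 over 42 tested, with none called, in the densest neighbourhoods of any list (a median of 51 start sites). Ribosomal protein genes had a median of 0.16 over 75 tested, and 1 of them was called (1.33%, against 1.30% of all genes higher in number 2). It was Rps10, with 26.2, 20.9, 47.9 and 48.4 CPM (log2 1.04 ± 0.27, edgeR adjusted p = 0.0494). The medians were 0.11 for heat shock genes (12), −0.006 for interferon response genes (22) and 0.043 for cell cycle genes (23), with none called, values whose sign changed in 3, 8 and 3 of 12 alternatives, and the 1 tested Hox gene had −0.91.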

How the data were processed

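CUT&Tag of H3K27ac was performed on sorted large intestinal Treg cells, with 2 Ctrl and 2 KO libraries. The authors trimmed the reads, aligned them to mm10 with Bowtie2, kept uniquely mapped reads, removed duplicates, used MACS2 with IgG as the control for peak calling, and joined the peaks with bedtools. The deposited values are raw read counts per merged peak without normalization, and tool versions are not given in the sources used here. Because peaks were called on the libraries compared, the peak set depends on them. Each of the 4 count columns matched 1 library title by genotype and number, and 0 columns were left over. Starts in the table were read as 0-based and are given 1-based.

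Number 2 was compared with number 1 with edgeR 4.0.16 (R 4.3.3, quasi-likelihood), with TMM scaling, Benjamini-Hochberg adjustment over all tested peaks or genes, a threshold of 0.05 and no covariate. The fit had 2 residual degrees of freedom. For peaks the estimated prior degrees of freedom were infinite, so the spread came from the abundance trend, and for genes they were 13.6. Differences within a genotype used log2 CPM with a prior count of 2. Standard errors were derived from the log2 difference and the F statistic. Each peak was given to 1 gene of GENCODE M21 basic: promoter within 3 kb of a start site, gene body, or intergenic. CPM per gene is not corrected for length, so levels are not compared between genes. Library totals of 2395002 to 4712473 counts set the precision, and a median peak held 8 to 13 counts.

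Genes named are the 12 per direction with the smallest p whose numbers do not overlap, 6 and 6 peaks by the same rule, every called list member and 18 set genes; a few list members and windows with extreme values were added after their values were seen. A few genes that the rule names are not reported here. Members, lists and rules were chosen with earlier results of these data known. The code was tested on simulated data. Alternatives were DESeq2 1.42.0 and its size factors, total counts, loess offsets (limma 3.58.1), genotype as a term, other count minimums, thinned and halved counts, a promoter limit of 1 kb and leaving out each library.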

Additional observations from a re-analysis of the deposited data

Results flagged for a closer look

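In several classes and lists the Ctrl pair and the KO pair moved in opposite directions, and the difference between the genotypes was not tested. The value given for each is the KO pair (KO 2 minus KO 1) minus the Ctrl pair (Ctrl 2 minus Ctrl 1), in log2 units. It was 0.12 for promoter peaks (−0.07 in the Ctrl pair, 0.046 in the KO pair) and 0.085 for promoter peaks that are not CpG-rich. Among marker lists it was −1.04 for epithelium (0.29 and −0.75, 7 genes), −0.73 for NK and CD8 genes (4 genes), −0.68 for endothelium (2 genes), −0.63 for stroma (3 genes) and −0.46 for mast and erythroid genes (4 genes). It was 0.38 for resting lymphoid genes (−0.074 and 0.31) and −0.10 for cell cycle genes (0.044 and −0.054).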

How the results depend on the processing

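Peaks called higher in number 2 and in number 1 numbered 256 and 310 with unscaled totals, 456 and 696 with a loess offset on abundance, 68 and 155 with one on GC content, 73 and 26 by DESeq2, 1027 and 866 with genotype as a term, 9 and 5 with no count minimum, 458 and 581 of 16011 peaks with at least 50 counts, and 9 and 6 in thinned libraries. Leaving out 1 library gave 1 to 160 and 3 to 64, with the lowest counts without Ctrl 1. Genes numbered 124 and 151 with unscaled totals, 100 and 153 with the GC offset, 1459 and 1306 with genotype as a term, 563 and 348 with no minimum, 77 and 88 in thinned libraries, and 0 and 0 with at least 50 counts. Leaving out 1 library gave 0 to 471 and 0 to 506, with 0 without KO 1. Of 908 refits of the 65 called named genes 652 kept the call and 0 changed direction, and of 168 refits of the 12 named peaks 143 kept it and 0 changed direction. These named genes and peaks were chosen as called, with numbers that do not overlap, so the choice largely fixes their direction. In thinned libraries 24 of the 65 genes lost the call. The cause of the changes between settings was not tested.

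For KO against Ctrl, where 1 peak was called, DESeq2 called 0 (1468 at an unadjusted p under 0.05), the fit with at least 50 counts 0 (277), and the fits without 1 library 0 each. With the replicate number as a block 211 peaks were called (152 higher and 59 lower in KO), and 50 by DESeq2 with the same block, a setting chosen after seeing the data. Differences between the numbers in the Ctrl and KO pairs correlated at 0.26 across peaks, 0.45 across genes and 0.84 across 1 Mb windows. Windows pool many peaks, so these values do not measure an extent along the chromosome. With 2 pairs and labels that are silent, the numbers are not taken to pair the samples.

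The gene body median was 0.20 with no count minimum and 0.011 to 0.22 without 1 library. Leaving out 1 library also leaves the genotypes unbalanced between the numbers. The promoter median was −0.12 to 0.007 without 1 library. The intergenic median was −0.28 with the abundance offset, −0.51 with no minimum, −0.13 with at least 50 counts, −0.22 in thinned libraries and −0.35 to −0.14 without 1 library. The intergenic share difference was −3.64 points over all peaks. The gradient over gene density and the chromosome 11 median, refitted after seeing the data, were 0.91 and 0.37 with the abundance offset, 0.77 and 0.37 with the GC offset, 1.58 and 0.49 with no minimum, 0.62 and 0.33 with at least 50 counts, 0.81 and 0.35 in thinned libraries, 0.88 for the gradient with halved counts and 0.37 for chromosome 11 with DESeq2 size factors. Without 1 library they were 0.85 to 0.91 and 0.32 to 0.45. All kept their sign. Among lists, the median changed sign in 8 of 12 alternatives for interferon response genes and in 5 of 12 for endothelium. In thinned libraries the T cell median was 0.34 and the olfactory receptor median −0.59, against 0.40 and −0.77 in the main fit. The dendritic cell median was −0.36 and the endothelium median 0.14, against −0.023 and −0.20. The main fit did not cover peaks that missed the count minimum (10, reached by 2 or more libraries). The part of depth in the number of calls was not tested.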
